A study of Homo sapiens with 12 samples.

Results

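The ISG15 conjugation system was followed in 12 RNA-seq libraries from a pair of established human cell lines of pancreatic cancer, PANC-1 and AsPC-1. Its genes were taken as ISG15, UBA7, UBE2L6, HERC5, HERC6, USP18 and ISG20. Transcript values were summed to genes by GENCODE v44 symbol, and 6 of the 7 genes had paired transcript rows. ISG15 itself was not analysed here, since no row paired with it under that annotation. The 6 measured genes belong to 39099 summed genes, and all 6 were among the 14767 that reached at least 1 TPM, a relative transcript abundance scaled for length, in at least 2 libraries and were tested.

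Each line was studied as a mock control, with overexpressed TAp63 and with overexpressed deltaNp63, which gave 6 groups of 2 libraries labelled as biological replicates. TP63 encodes a transcription factor of the p53 family, and its TAp63 proteins carry an amino-terminal activation domain that its deltaNp63 proteins lack. The vector, the time after its delivery, and whether cells were clones or pools are not given in the labels. Only the mock cells serve as controls, and no group was treated with interferon according to the labels.

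ISG15 is a small ubiquitin-like protein that interferon induces and that is joined to other proteins in a chain of enzymes like the one for ubiquitin. UBA7 activates ISG15, UBE2L6 carries it, and HERC5 is the main human ligase that attaches it to substrates. HERC6 is the closest relative of HERC5 and takes that ligase role in the mouse. USP18 removes ISG15 from its substrates and also binds the type I interferon receptor, where it limits signalling. ISG20 is an interferon-induced RNA exonuclease that shares the naming scheme but takes no part in conjugation. In epithelial cells these genes are known as targets of type I interferon signalling, which acts through the interferon-stimulated response element.

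The genes were chosen by measured values of these same libraries: they belong to an interferon response that earlier results had shown in the AsPC-1 comparisons with mock. Their values in those comparisons, and in the differences between the lines built on them, are therefore given as a description with no test. Tests are reported for TAp63 against deltaNp63 in AsPC-1, for the 3 comparisons in PANC-1, and for the mock cells of the lines against each other. The first and last of these use AsPC-1 libraries by which the genes were chosen, so they are not independent of that choice.

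The promoters of the family are shown for the letters that the response element carries, and the part of these letters in the levels was not tested. The core of that element, spelled GAAA, any 2 bases and GAAA, was searched on both strands from 250 bases before to 50 bases after the gene start in the RefSeq promoter table (GRCh38.p14). It stood in 1255 of 35116 promoters of that length, or 3.57%. ISG15, UBE2L6, HERC5, HERC6 and ISG20 had entries, with 2 for UBE2L6, while UBA7 and USP18 had none. Matches are in capitals in the stretches below, which are on the plus strand, 5′ to 3′, at chr1:1013344-1013439 for ISG15, chr4:88456954-88457094 for HERC5 and chr15:88638937-88638966 for ISG20.
ISG15: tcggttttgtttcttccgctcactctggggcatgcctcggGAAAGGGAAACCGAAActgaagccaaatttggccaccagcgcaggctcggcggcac
HERC5: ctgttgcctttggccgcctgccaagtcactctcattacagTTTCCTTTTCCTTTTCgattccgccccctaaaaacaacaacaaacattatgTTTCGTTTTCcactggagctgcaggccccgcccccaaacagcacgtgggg
ISG20: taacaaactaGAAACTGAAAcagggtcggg

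ISG15 held 2 overlapping matches, GAAAGGGAAA and GAAACCGAAA, that began 113 and 107 bases before its RefSeq start. HERC5 held 3 matches on the opposite strand, of which the 2 farther from the start overlapped and the last, TTTCGTTTTC, began 74 bases before it. ISG20 held 1 match, GAAACTGAAA, that began 69 bases before its RefSeq start. For ISG15, ISG20, HERC6 and both UBE2L6 entries the RefSeq start used here lies inside the gene as GENCODE v44 places it. The ISG20 stretch overlaps 3 annotated exons. The windows of HERC6 and UBE2L6 held no match. Both UBE2L6 windows lie wholly inside the GENCODE gene, so the sequence before its GENCODE start was not searched. The gamma-activated site TTCNNNGAA, found in 7.66% of all promoters, had no match in any of these windows.

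The libraries were checked by the overexpressed gene and by cell type markers. TP63 stood at 0.0245 to 1.10 TPM in the 4 mock libraries, at 102 to 342 in the 4 TAp63 libraries and at 245 to 1187 in the 4 deltaNp63 libraries. All 5 epithelial markers (KRT8, KRT18, KRT19, EPCAM and CDH1) reached 1 TPM in both lines, with summed levels of 7131 to 10550 TPM in AsPC-1 and 3483 to 3851 TPM in PANC-1. The 2 endothelial markers with rows and the 3 acinar markers stayed under 1 TPM each in every group mean, and PTPRC, the defining leukocyte marker, was at or below 0.0102 TPM in every library. Of 5 leukocyte markers, 2 reached 1 TPM in AsPC-1 (CD68 and LYZ) and 1 in PANC-1 (CD68), with summed levels of 199 to 244 TPM and 255 to 288 TPM. Of 5 fibroblast markers, 1 did so in each line, LUM in AsPC-1 and COL1A1 in PANC-1. In bulk RNA, fewer cells that express a gene and less RNA in each cell cannot be told apart.

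UBA7, the activating enzyme (ENSG00000182179, hg38 chromosome 3, 49805209 to 49813953, minus strand), was the least abundant of the 6 genes in AsPC-1. It stood at 5.52 and 5.14 TPM in the AsPC-1 mock libraries, at 2.41 and 2.28 TPM with TAp63, and at 0.838 and 1.21 TPM with deltaNp63. The 3 AsPC-1 groups did not overlap, and the order ran from mock through TAp63 to deltaNp63. The PANC-1 libraries held 7.10 and 7.27 TPM in mock, 7.53 and 8.66 TPM with TAp63, and 8.93 and 7.64 TPM with deltaNp63. Every PANC-1 library was above every AsPC-1 library for this gene. UBA7 overlaps the microRNA gene MIR5193, so its reads could be shared with that locus.

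UBE2L6, the conjugating enzyme (ENSG00000156587, chromosome 11, 57551656 to 57568284, minus strand), showed the widest span of the family. Its levels in AsPC-1 were 28.7 and 29.3 TPM in mock, 6.05 and 9.66 TPM with TAp63, and 4.18 and 4.83 TPM with deltaNp63. With TAp63 the mean was 27.1% of the mock mean, and with deltaNp63 it was 15.5%. In PANC-1 it stood at 184 and 189 TPM in mock, 199 and 184 TPM with TAp63, and 195 and 190.3 TPM with deltaNp63. The AsPC-1 groups were apart from each other, while the PANC-1 groups lay within a 1.09-fold range from the lowest to the highest library. Across all 12 libraries the range was 47.8-fold.

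HERC5, the ligase (ENSG00000138646, chromosome 4, 88457119 to 88506163, plus strand), followed the same order in AsPC-1. The mock libraries held 19.8 and 21.9 TPM, the TAp63 libraries 7.59 and 9.59 TPM, and the deltaNp63 libraries 5.84 and 5.60 TPM. PANC-1 held 69.0 and 63.8 TPM in mock, 68.6 and 58.4 TPM with TAp63, and 65.2 and 74.7 TPM with deltaNp63. The PANC-1 groups overlapped throughout, and all of them were above AsPC-1 mock.

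HERC6 (ENSG00000138642, chromosome 4, 88378739 to 88443097, plus strand) ends 14021 bases before HERC5 begins, on the same strand. In AsPC-1 it stood at 47.3 and 52.6 TPM in mock, 16.8 and 24.9 TPM with TAp63, and 11.4 and 16.1 TPM with deltaNp63. Here, too, the 3 AsPC-1 groups did not overlap. In PANC-1 it held 3.17 and 3.14 TPM in mock, 3.28 and 3.25 TPM with TAp63, and 3.45 and 5.14 TPM with deltaNp63. HERC6 was the one member whose PANC-1 libraries were all below all AsPC-1 libraries.

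USP18, the protease that removes ISG15 (ENSG00000184979, chromosome 22, 18150118 to 18177397, plus strand), stood at 59.8 and 61.2 TPM in AsPC-1 mock. It held 24.3 and 30.2 TPM with TAp63 and 15.7 and 20.1 TPM with deltaNp63, again with no overlap. PANC-1 held 109 and 116 TPM in mock, 116 and 108 TPM with TAp63, and 112 and 124 TPM with deltaNp63. USP18 has a near-identical copy, USP41, which was listed at 0 in 10 libraries and at no more than 0.0863 TPM in the others. How reads were split between these copies is not given in the sources used here, so the USP18 level is uncertain to that extent.

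ISG20, the exonuclease (ENSG00000172183, chromosome 15, 88635670 to 88656483, plus strand), did not share this pattern. AsPC-1 held 93.7 and 116 TPM in mock, 106 and 108 TPM with TAp63, and 103 and 99.1 TPM with deltaNp63. PANC-1 held 102 and 111 TPM in mock, 107 and 103 TPM with TAp63, and 112 and 116 TPM with deltaNp63. All 12 libraries fell within a 1.24-fold range, and the AsPC-1 mock libraries spanned both other AsPC-1 groups.

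**Figure D1:**
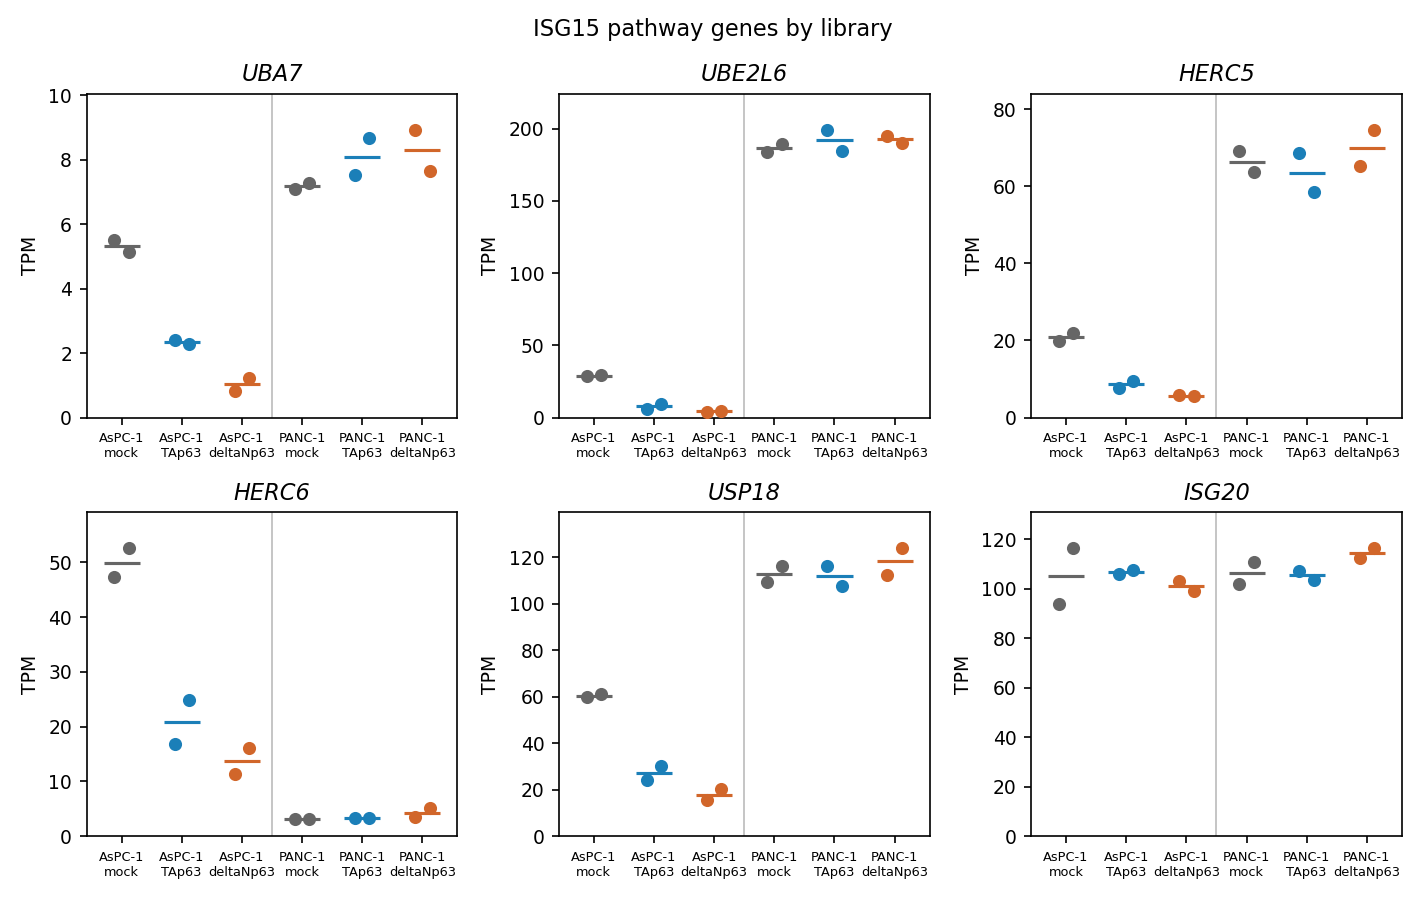
Level of each of the 6 measured genes in TPM (vertical axes from 0, one panel a gene) in the 12 libraries by cell line and construct; points are libraries and bars are the means of 2 libraries. UBA7, UBE2L6, HERC5, HERC6 and USP18 step down from mock to TAp63 to deltaNp63 in AsPC-1, while ISG20 lies between 93.7 and 116 TPM in every library.

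With TAp63 in AsPC-1, the 5 genes other than ISG20 were lower than in mock by 2.22-fold for USP18 to 3.69-fold for UBE2L6, as ratios of group means. UBA7 was 2.27-fold lower, HERC6 2.40-fold and HERC5 2.43-fold. On the log2(TPM + 1) scale, which understates the change of low genes, UBE2L6 differed by -1.79 (SE 0.16) and HERC6 by -1.25 (SE 0.21). The values were -1.19 (SE 0.13) for HERC5, -1.13 (SE 0.13) for USP18 and -0.92 (SE 0.13) for UBA7. ISG20 differed by 0.03 (SE 0.10), less than the spread between its mock libraries. In the limma model of all genes, 5 of the 6 members passed an adjusted p of 0.05 in the lower direction, where 0.609% of all genes did so. The genes were chosen on this comparison, so this count describes them and is no test. The groups did not overlap for those 5, with the mock libraries higher, as for 35.4% of all genes.

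With deltaNp63 in AsPC-1, the same 5 genes were lower than in mock by 3.38-fold for USP18 to 6.44-fold for UBE2L6. UBA7 was 5.19-fold lower, HERC5 3.65-fold and HERC6 3.64-fold. The log2(TPM + 1) differences were -2.45 for UBE2L6, -1.81 for HERC6, -1.71 for USP18, -1.70 for HERC5 and -1.65 for UBA7, with the SEs given for TAp63. ISG20 differed by -0.05 (SE 0.10). As a description of the chosen genes, 5 of 6 passed in the lower direction, beside 6.51% of all genes, and their groups did not overlap, as for 41.1% of all genes. The median over the 6 members was -1.16 with TAp63 and -1.71 with deltaNp63, beside -0.08 and -0.12 over all genes tested.

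Among the markers of other cell types, CD68 was lower with both constructs in AsPC-1. It held 115 and 126 TPM in mock, 96.8 and 106 TPM with TAp63, and 91.9 and 90.8 TPM with deltaNp63. The differences were -0.24 and -0.39 on the log2(TPM + 1) scale, of which the second passed by limma. LYZ, the other leukocyte marker at 1 TPM or more there, did not pass with either construct. It held 130 and 110 TPM in mock, 110 and 102 TPM with TAp63, and 119 and 108 TPM with deltaNp63. PTPRC and CD3E were at or near 0 in these libraries, and the part of CD68-expressing cells in the result was not tested.

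Both AsPC-1 comparisons use the same mock libraries, so they are not independent of each other. The counts rest on a spread pooled over all 12 libraries. With only the 6 AsPC-1 libraries, 0 of 6 members passed for either construct, beside 1 (TAp63) and 8 (deltaNp63) of all 14767 genes. With only the groups compared 0 members passed, as did 0 of all genes. In each of those models 5 members still had an unadjusted p under 0.05 by limma. So did 1368 and 2721 of all genes with the line's libraries, and 1971 and 2020 with only the groups compared. HERC6 with TAp63 lost its pass when any of 9 libraries was left out, namely any PANC-1 library, either AsPC-1 mock library or AsPC-1 TAp63 replicate 1. UBA7 with TAp63 lost it when any of the 4 libraries compared was left out.

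**Figure D2:**
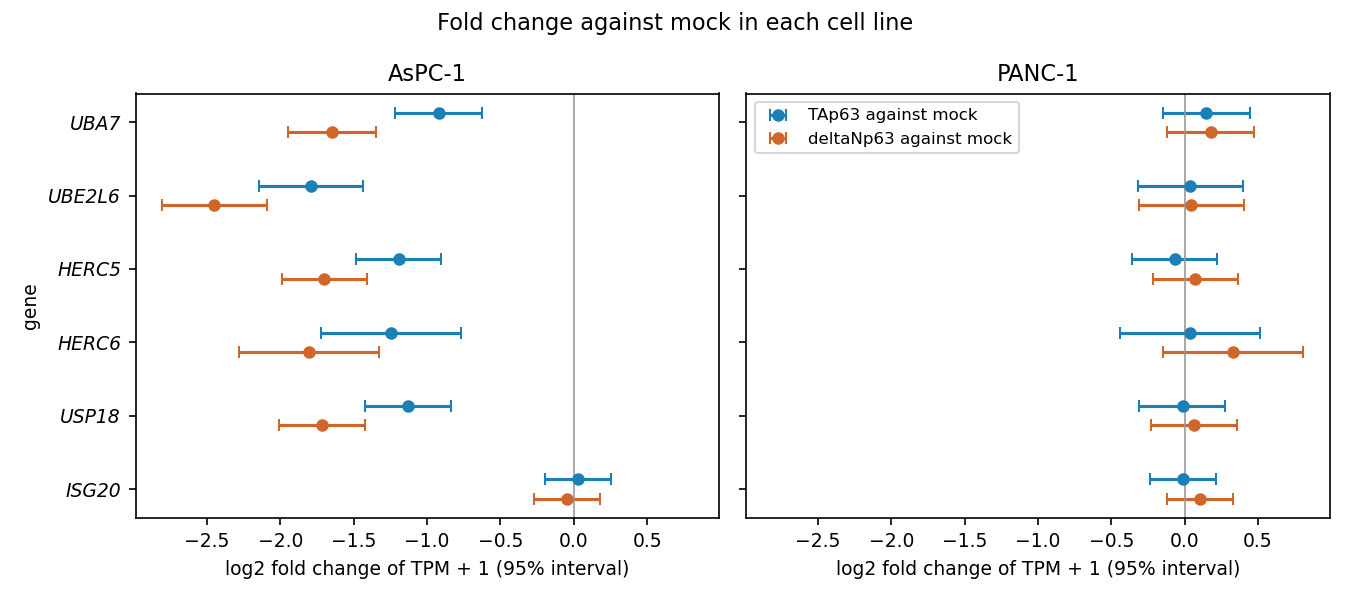
Difference from mock in log2(TPM + 1) (horizontal axis) for the 6 genes in AsPC-1 (left) and PANC-1 (right); points are limma estimates and bars are 95% intervals, with TAp63 in blue and deltaNp63 in orange. The 5 enzymes lie between -2.45 and -0.92 in AsPC-1 and between -0.07 and 0.33 in PANC-1, and ISG20 lies near 0 in both.

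TAp63 and deltaNp63 were then compared with each other in AsPC-1. This comparison leaves out the mock libraries, but its libraries are among those by which the genes were chosen. All 6 members were higher with TAp63 than with deltaNp63 with no overlap between the groups, as were 19.6% of all genes. UBA7 differed by 0.73 on the log2(TPM + 1) scale (95% interval 0.43 to 1.03; limma adjusted p = 0.413) and UBE2L6 by 0.66 (0.30 to 1.02; 0.628). USP18 differed by 0.58 (0.29 to 0.88; 0.616), HERC6 by 0.56 (0.08 to 1.04; 0.628) and HERC5 by 0.51 (0.22 to 0.79; 0.628), each with its interval and limma adjusted p. The value for ISG20 was 0.08 (-0.15 to 0.30; 0.851).

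None of the 6 members passed the adjusted threshold in that comparison by limma, beside 0.0203% of all genes. An unadjusted p under 0.05 was found for 5 members, beside 1170 of all 14767 genes. With AsPC-1 deltaNp63 replicate 2 left out, UBA7 passed at 0.86 (limma adjusted p = 0.0176) and USP18 at 0.75 (limma adjusted p = 0.0188). Over all 22 alternatives the limma adjusted p ranged from 0.0176 to 0.922 for UBA7 and from 0.0188 to 1 for USP18. With that library left out 1025 of all genes passed, where 3 did with all libraries. The TP63 transcript level was also higher in the deltaNp63 libraries (245 and 350.4 TPM) than in the TAp63 libraries (102 and 170 TPM), and its part in these differences was not tested.

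In PANC-1, neither construct moved a member past the threshold. With TAp63, UBA7 differed from mock by 0.15 (95% interval -0.15 to 0.45), UBE2L6 by 0.04 (-0.32 to 0.40), HERC6 by 0.04 (-0.44 to 0.52) and HERC5 by -0.07 (-0.36 to 0.22). USP18 and ISG20 each differed by -0.01. With deltaNp63, HERC6 differed by 0.33 (-0.15 to 0.81), UBA7 by 0.18 (-0.12 to 0.48), ISG20 by 0.10, HERC5 by 0.07, USP18 by 0.07 and UBE2L6 by 0.05 (-0.31 to 0.40). The intervals of all 6 members included 0 in each comparison, and changes up to their limits remain possible. For HERC6 with deltaNp63 that limit was 0.81, and the mean was 136% of the mock mean in TPM. By limma, 0 of 6 members passed with TAp63, with deltaNp63 or between the constructs, and 0 had an unadjusted p under 0.05. The shares of all genes that passed were 0.00677%, 0.0406% and 0.0271%.

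The PANC-1 groups did separate for a few members without passing the test. UBA7 and HERC6 were above mock in both TAp63 libraries, which held for 22% of all genes. With deltaNp63, UBA7, UBE2L6, HERC6 and ISG20 were above mock in both libraries, beside 10.8% of all genes. HERC6 and ISG20 were lower with TAp63 than with deltaNp63 in both libraries, beside 13.8% of all genes. For UBE2L6 this separation came to a mean of 193 TPM against 186 TPM. TP63 reached 324 and 342 TPM with TAp63 in PANC-1, beside 102 and 170 TPM in AsPC-1, and its part in the difference between the lines was not tested.

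The difference between the lines in each construct's effect is given as a description. For TAp63 it was 1.83 for UBE2L6, 1.28 for HERC6, 1.13 for HERC5, 1.12 for USP18 and 1.07 for UBA7 on the log2(TPM + 1) scale, with PANC-1 higher. UBE2L6 was the 1 member past the threshold there, beside 0.0745% of all genes. For deltaNp63 the differences were 2.50 for UBE2L6, 2.14 for HERC6, 1.83 for UBA7, 1.78 for USP18 and 1.77 for HERC5, and these 5 passed beside 0.562% of all genes in the higher direction. ISG20 differed by -0.04 for TAp63 and 0.15 for deltaNp63.

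The mock cells of the lines differed before any construct was added, in a comparison where 72.5% of all genes passed the threshold. The AsPC-1 mock libraries are also among those by which the genes were chosen. UBE2L6 was 6.43-fold higher in PANC-1 mock than in AsPC-1 mock (log2 difference 2.64, SE 0.16; limma adjusted p = 1.8e-07). HERC5 was 3.19-fold higher (1.63, SE 0.13; limma adjusted p = 1.48e-06) and USP18 1.87-fold higher (0.89, SE 0.13; limma adjusted p = 0.000147). HERC6 went the other way and was 15.8-fold lower in PANC-1 (-3.61, SE 0.21; limma adjusted p = 1.55e-07). ISG20 did not pass (0.02, SE 0.10; limma adjusted p = 0.845).

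UBA7 was 1.35-fold higher in PANC-1 mock (0.37, SE 0.13; limma adjusted p = 0.0279), and this call was not stable. It was lost under median centring (0.20; limma adjusted p = 0.198), under quantile normalization (0.14; limma adjusted p = 0.382) and without any 1 of the 4 mock libraries (limma adjusted p 0.0561 to 0.119). Over its 21 alternatives the limma adjusted p ranged from 0.0159 to 0.382. In all, 4 members rose and 1 fell in PANC-1 mock, beside 44.6% and 27.9% of all genes.

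HERC5 and HERC6, the neighbouring ligase genes on chromosome 4, thus stood in opposite order in the lines. HERC6 was at 2.39 and 2.40 times the TPM of HERC5 in the AsPC-1 mock libraries, and TPM is scaled for transcript length. The ratio stayed between 1.95 and 2.87 over the 6 AsPC-1 libraries, although both genes were at less than the mock level with either construct. In PANC-1 the ratio lay between 0.046 and 0.0687. Of the libraries in each line, none came near the ratio of the other line.

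**Figure D3:**
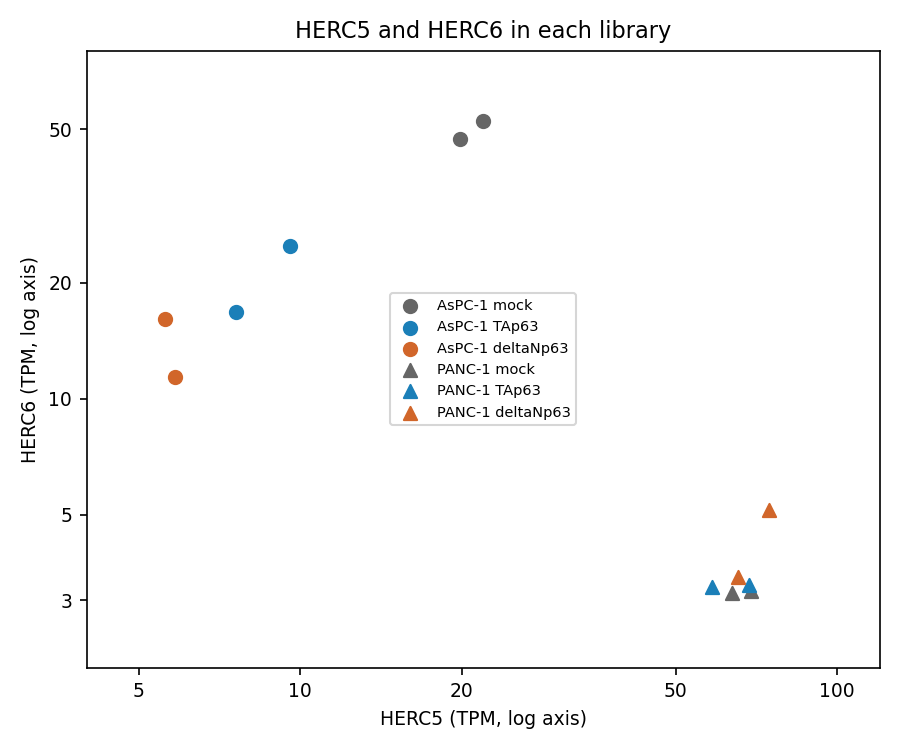
HERC6 against HERC5 in TPM, both on log axes, with 1 point for each of the 12 libraries; circles are AsPC-1, triangles are PANC-1 and colours mark the construct. AsPC-1 libraries run along a line of near-constant ratio (1.95 to 2.87), and PANC-1 libraries sit apart with high HERC5 (58.4 to 74.7 TPM) and low HERC6 (3.14 to 5.14 TPM).

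The ratio of the protease transcript to that of the conjugating enzyme also differed, and neither protein was measured here. In AsPC-1 mock USP18 stood at 2.09 times the TPM of UBE2L6 in both libraries. With TAp63 the ratio was 4.02 and 3.13, and with deltaNp63 it was 3.75 and 4.16. All 4 construct libraries were above both mock libraries, since UBE2L6 was lower by a larger factor than USP18. In PANC-1 the ratio was 0.577 to 0.652. UBE2L6 was 2.51 to 5.71 times as abundant as UBA7 in AsPC-1 and 21.3 to 26.5 times in PANC-1.

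Across the 6 AsPC-1 libraries the 5 enzymes were correlated pairwise on the log2(TPM + 1) scale with Pearson's r of 0.958 to 0.995, and ISG20 with each of them at 0.128 to 0.2. The 6 libraries fall into 3 groups, so the correlations include the differences between groups. In the 6 PANC-1 libraries the same enzyme pairs ranged from -0.515 (UBA7 with HERC5) to 0.775 (HERC6 with USP18).

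The genes differed in how many transcripts carried them. The leading transcript of UBE2L6 (ENST00000287156) held 95.8% of the gene's TPM over the 12 libraries and that of HERC5 (ENST00000264350) held 99.0%. By library, the UBE2L6 share was 99.6% and 95.6% in AsPC-1 mock, 97.7% and 83.0% with TAp63, and 72.1% and 96.0% with deltaNp63. ENST00000215794 was the only USP18 transcript with a value above 0. The leading transcript of UBA7 (ENST00000333486) held 59.1%, and the retained-intron transcript ENST00000460516 held 11.4%. The leading transcript of HERC6 (ENST00000264346) held 70.2%, and the retained-intron transcript ENST00000515365 held 14.4%. For ISG20, ENST00000560741 held 78.2% and ENST00000306072 held 17.2%. In PANC-1, where HERC6 was low, its leading transcript held 58.6% of the gene in mock, 31.8% with TAp63 and 36.3% with deltaNp63, beside 71.5% to 75.4% in the AsPC-1 groups. The PANC-1 replicates were unlike: the share was 53.2% and 10.4% in the TAp63 libraries and 46.9% and 25.8% in the deltaNp63 libraries, so that replicate 1 with TAp63 was near the mock share.

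Genes around the conjugation system were read from lists drawn up with earlier results of these data known. Among known substrates and partners of ISG15, 3 of 20 tested genes passed in AsPC-1 with TAp63, all lower, beside 0.609% of all genes. They were MX1, an antiviral GTPase, at -1.62, IFIT1, which binds viral RNA, at -1.37, and the RNA sensor RIGI at -1.08 on the log2(TPM + 1) scale. The list median was -0.09, beside -0.08 over all genes. With deltaNp63 7 of 20 passed, all lower, beside 6.51% of all genes, led by MX1 at -2.45, IFIT1 at -1.77 and RIGI at -1.33, with a list median of -0.19.

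Upstream of the family, 8 genes of interferon receptors and signalling were tested. STAT2, a transcription factor of interferon signalling, was the 1 that passed in AsPC-1 with each construct, at -0.83 with TAp63 and -0.94 with deltaNp63. Of all genes, 0.609% and 6.51% passed in the lower direction. It held 23.2 and 24.6 TPM in mock, 12.8 and 13.3 TPM with TAp63, and 11.6 and 12.4 TPM with deltaNp63. Its partner IRF9 did not pass and held 146 and 173 TPM in mock, 132 and 146 TPM with TAp63, and 142 and 125 TPM with deltaNp63. In PANC-1 0 of these 8 genes passed with either construct by limma, while 0 with TAp63 and 1 with deltaNp63 had an unadjusted p under 0.05. Over all 14767 genes, 1 and 6 passed there, and 503 and 345 had an unadjusted p under 0.05.

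Related enzymes were read from a further pair of lists. Of 9 tested paralogs of the members, 0 passed in AsPC-1 with either construct by limma. An unadjusted p under 0.05 was found for 4 with TAp63 and 3 with deltaNp63. The paralogs went both ways, from -0.39 to 0.45 with TAp63 and from -0.32 to 0.62 with deltaNp63, with 5 of 9 below 0 for each. UBE2L3, the paralog of UBE2L6 that serves ubiquitin, held 91.0 and 88.0 TPM in mock, 84.6 and 82.5 TPM with TAp63, and 95.1 and 88.3 TPM with deltaNp63. Of 25 genes of other ubiquitin-like systems 0 passed with either construct by limma, while 5 and 7 had an unadjusted p under 0.05. Over all 14767 genes, 94 with TAp63 and 1055 with deltaNp63 passed, and 2233 and 4383 had an unadjusted p under 0.05. The medians were -0.08 for paralogs and -0.07 for other ubiquitin-like genes with TAp63, and -0.16 and -0.08 with deltaNp63.

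**Figure D4:**
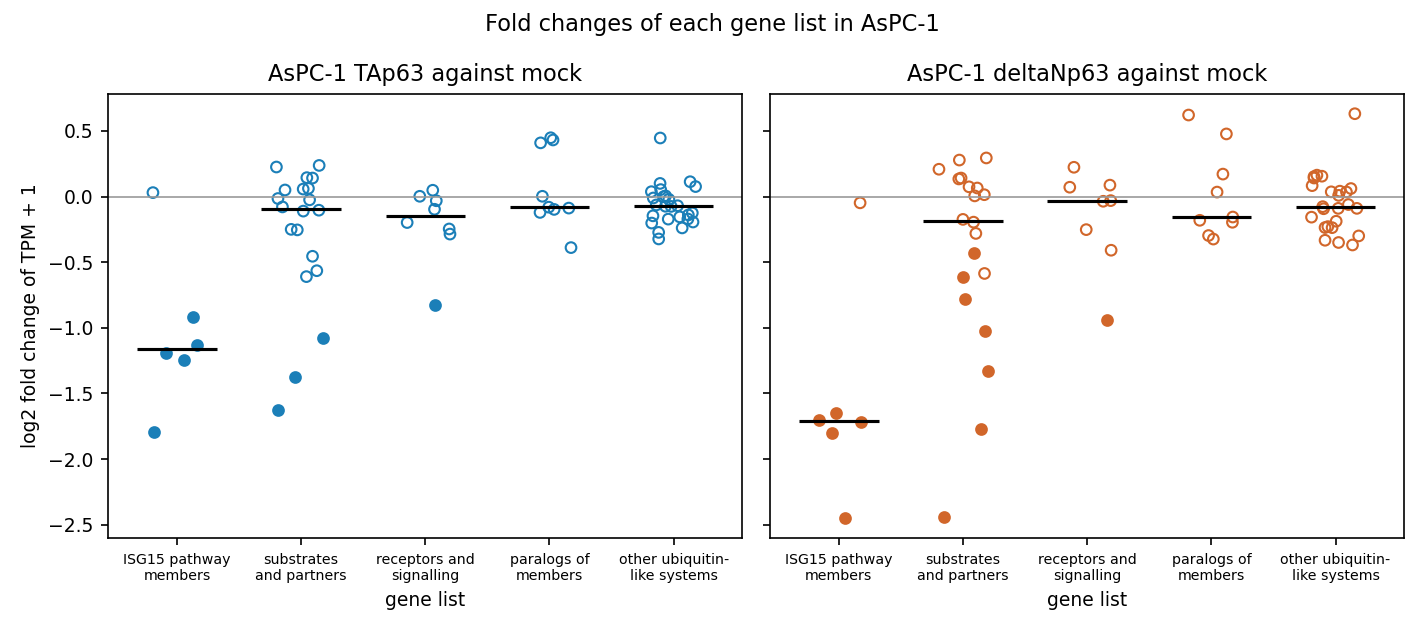
Difference from mock in AsPC-1 in log2(TPM + 1) (vertical axis) for each tested gene of 5 lists, with TAp63 on the left and deltaNp63 on the right; filled points passed a limma adjusted p of 0.05, open points did not, and black bars are list medians. The members' medians are -1.16 and -1.71, while the paralogs and other ubiquitin-like genes hold 0 filled points. Over all 14767 genes, 94 passed with TAp63 and 1055 with deltaNp63.

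The genes most like the family were those with the highest Pearson correlation over the 12 libraries with the mean of the 6 members, each centred on its own mean. They were SHFL (r = 0.997), MX1 (0.997), OAS3 (0.994), OASL (0.994) and NMI (0.992). These values are for the mean and do not hold for each member. Over the 12 libraries HERC6 correlated with the other enzymes at -0.716 to -0.508, and ISG20 with the 5 enzymes at -0.215 to 0.388. SHFL, an interferon-induced inhibitor of viral translation, had group means of 39.4, 19.1 and 13.8 TPM in AsPC-1 (mock, TAp63, deltaNp63) and of 51.0 to 53.0 TPM in the PANC-1 groups. OAS3, which makes the signal for RNase L, stood at 175, 70.0 and 43.4 TPM in the AsPC-1 groups and at 212 to 224 TPM in PANC-1. The points share the contrast between the lines and the AsPC-1 steps, so the values are a description.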

How the data were processed

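RNA-seq libraries were made from total RNA with a stranded mRNA kit, per the labels' protocols. The authors deposited 1 table of TPM values for 153329 Ensembl transcripts, and all columns have the same sum. The aligner, quantifier, genome build and annotation are not given in the sources used here. TPM keeps no read depth, so depth is unknown and no counting interval was computed.

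Here, 139819 transcripts (91.2%, holding 89.6% to 90.5% of TPM) were paired with genes through GENCODE v44 (hg38) and summed. The 13510 others were left out. limma 3.58.1 (R 4.3.3, with trend) was fitted on log2(TPM + 1) with a mean for each of 6 groups, 6 residual degrees of freedom and Benjamini-Hochberg adjustment within each of 9 contrasts over all 14767 genes. The test was tried on simulated data.

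Members and lists were chosen with earlier results of these data known. A further result, for a gene of the signalling list, is not reported here, and the list's counts leave it out. Named genes were all members, list genes past the threshold (all if 5 or fewer, otherwise the 3 largest), the 5 genes most correlated with the members, paralogs for their level, transcripts holding at least 10% of a member, and TP63. The other settings were 10 alternatives and leaving out each of 12 libraries. P-values measure the spread between 2 libraries a group, and 2 against 2 allows no exact test to reach 0.05.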

Additional observations from a re-analysis of the deposited data

Results flagged for a closer look

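The difference between the lines in a construct's effect (PANC-1 minus AsPC-1, log2(TPM + 1) scale) was past the threshold of the limma model for some members. For TAp63 this was UBE2L6 (1.83). For deltaNp63 it was UBE2L6 (2.50), HERC6 (2.14), UBA7 (1.83), USP18 (1.78) and HERC5 (1.77). The genes were chosen with the AsPC-1 response known, so these differences are a description and no test. In AsPC-1 all 5 were lower with deltaNp63 than in mock, and in PANC-1 each was within its own interval of mock. The UBE2L6 difference for TAp63 lost its pass when any of 8 libraries was left out, which were all 6 PANC-1 libraries and both AsPC-1 mock libraries. The HERC6 difference for deltaNp63 lost it for any of 5, which were the 4 mock libraries and PANC-1 deltaNp63 replicate 2.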

How the results depend on the processing

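Of 21 member fold changes past the threshold, none changed direction in 451 values under other settings, and 68 of those values lost the threshold. With TAp63 against mock in AsPC-1, 5 members passed, beside 94 of all genes. That became 0 with only the groups compared, 0 with only the 6 libraries of the line and 3 on transcript rows. Leaving out a replicate gave -2.09 to -1.49 for UBE2L6 and -0.96 to -0.88 for UBA7. With deltaNp63 the 5 became 0 with only the groups compared and 0 with only the line's libraries. Over all genes, 1 (TAp63) and 8 (deltaNp63) passed with only the line's libraries, and 0 with either construct when only the groups were compared. For TAp63 against deltaNp63 the differences without a replicate were 0.595 to 0.863 for UBA7 and 0.414 to 0.753 for USP18. For the TAp63 difference between lines, 1 member passed, beside 11 of all genes. Without trend 0 members passed, as did 0 of all genes. At a mean of at least 5 TPM 3 members passed, beside 30 of 10221 genes. With only the groups compared 0 members passed, beside 14 of all genes, and 0 passed on transcript rows. Without a replicate the UBE2L6 difference was 1.53 to 2.13. On transcript rows, where no count over all rows is given here, the deltaNp63 difference (5 members, beside 86 of all genes) became 3. The cause was not tested.

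Values that were near 0 changed sign. ISG20 with deltaNp63 in AsPC-1 was 0.013 under quantile normalization and 0.16 under median centring, ISG20 between mock cells was -0.034 and -0.15, and its deltaNp63 difference between lines was -0.033 under centring. On transcript rows in PANC-1, HERC6 was -0.57 with TAp63 and -0.21 with deltaNp63, and UBA7 was -0.008 with deltaNp63 and 0.11 between constructs. Leaving out a replicate gave ISG20 ranges of -0.12 to 0.18 (TAp63, AsPC-1), -0.20 to 0.11 (deltaNp63, AsPC-1), -0.073 to 0.049 (TAp63, PANC-1), -0.13 to 0.18 (mock cells), -0.20 to 0.11 (TAp63 between lines) and -0.002 to 0.31 (deltaNp63 between lines). For TAp63 in PANC-1 the ranges were -0.18 to 0.048 for HERC5, -0.016 to 0.10 for UBE2L6 and -0.069 to 0.041 for USP18. For deltaNp63 in PANC-1 they were -0.024 to 0.17 for HERC5 and -0.005 to 0.14 for USP18, and between constructs -0.13 to 0.072 for UBA7 and -0.063 to 0.049 for UBE2L6.

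Median centring moved the median of all genes by 0.13 (TAp63) and 0.21 (deltaNp63) in AsPC-1, and the 5 enzymes then lay between -1.66 and -0.79 and between -2.24 and -1.44. Counts over all genes ranged from 0 to 412 for TAp63 (94 as reported) and from 0 to 4057 for deltaNp63 (1055), the zeros with only the groups compared. Same-numbered libraries had deviations correlated between -0.094 and 0.293. With 2 libraries a group this cannot decide whether the replicate numbers pair them. With a replicate block, 84 of all genes passed for TAp63 and 1633 for deltaNp63 in AsPC-1. The members past the threshold with that block stayed at 5 in AsPC-1 for each construct. In PANC-1 they stayed at 0, where 1 of all genes passed with each construct. Between mock cells they went from 5 to 4, beside 10711 and 10408 of all genes, and UBA7 had a limma adjusted p = 0.0672. Without read depth, the counting error of UBA7 and of HERC6 in PANC-1 is unknown.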
